A study of Mus musculus with 32 samples.

Results

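Silencing of Dnmt1 and stimulation with TNF + IFN were combined in cultured mouse lung endothelial cells (ECs), and the results below concern their interaction, that is, how far the response to the cytokine pair differed between silenced and control cells. For each gene the interaction is (si-dnmt + TNF + IFN minus si-dnmt) minus (si-control + TNF + IFN minus si-control) on the log2 scale. A negative value means that the level rose less, or fell more, in si-dnmt. The rule took the 4 groups named in this contrast, 4 libraries each, which are 16 of the 32 bulk RNA-seq libraries of the series, and every gene that passed the filter on low counts, 15250 of 54429 gene symbols. No measured value entered the choice of groups.

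The cells were the Veravec line of mouse lung ECs, transfected in consecutive rounds either with siRNA directed to Dnmt1 (si-dnmt) or with a control (si-control). The si-control and si-dnmt groups then had no cytokine, and si-control + TNF + IFN and si-dnmt + TNF + IFN had TNFα at 10 ng/mL with IFNγ at 1000 U/mL for 16 h. All libraries thus share transfection and 1 cell line, so they stand for cultures of that line and not for animals. The labels call them biological replicates, number them 1 to 4 within a group and give no day or batch, so p-values measure the spread between these cultures. The study's methods list more than 1 siRNA sequence for Dnmt1 and do not tie a sequence to a library. The study silenced Dnmt1 before adding cytokines to ask how its loss alters EC responses to them.

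Dnmt1 is the maintenance DNA methyltransferase, which copies CpG methylation onto the new strand at replication. IFNγ induces genes for guanylate-binding proteins, antigen-processing subunits and the factor IRF1, while TNFα acts mainly through NF-κB, which drives adhesion molecules and chemokines in endothelium. Many antiviral genes respond to type I interferon, to IFNγ or to IRF1.

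Total counts of the 16 libraries ranged from 17362500 to 26901200 (rounded), and mitochondrial genes took 2.13% to 5.77% of the counts, with the highest range in si-control (4.43% to 5.77%) and the lowest in si-dnmt + TNF + IFN (2.13% to 2.64%). Levels are counts per 1000000 (CPM) scaled with edgeR's TMM factors, and adjusted p comes from edgeR's quasi-likelihood test over all 15250 genes unless another source is named. The 7 endothelial markers examined, Cdh5 and Pecam1 among them, were present in every library, with a summed level of 2468 to 7762 CPM. Of 8 leukocyte markers 6 stayed below a mean of 1 CPM in every group, Cd3e and Adgre1 had no count, and the summed level was 67.6 to 227 CPM. Most of that sum was Cd68 (62.3 to 165 CPM over the groups) and Lyz2. Lyz2 was 43.6 to 132 CPM in si-control and 12.7 to 71.2 CPM in si-dnmt. With TNF + IFN it was 5.11 to 30.3 CPM and 1.21 to 7.79 CPM. Fibroblast markers summed to 10.8 to 80.5 CPM and epithelial markers to 5.35 to 25.9 CPM. Pericyte or smooth muscle markers summed to 7.68 to 183 CPM, with 7.68 to 26.6 CPM in si-control and 39.3 to 183 CPM in si-dnmt. Most of that sum was Acta2, at 6.94 to 23.9 CPM in si-control and 38.6 to 180 CPM in si-dnmt. Myh11 reached 0.22 and 1.56 CPM in these groups and Pdgfrb 2.33 and 2.36 CPM, while Rgs5, Cspg4 and Des stayed near 0. The part of these shares and markers in the results was not tested. Deviations from the group means were alike in replicates 1 and 2 of different groups and in 3 and 4 (correlations of 0.269 to 0.563), and opposite between these pairs (−0.521 to −0.279). Results are therefore also given within each pair. In bulk RNA a lower share of cells that express a gene and less RNA per cell cannot be told apart.

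Dnmt1 (ENSMUSG00000004099), the target, measured 90.1, 89, 153 and 148 CPM in si-control replicates 1 to 4 and 142, 150.1, 211 and 203 CPM with TNF + IFN. In si-dnmt it measured 10.3, 12.4, 6.44 and 6.53 CPM without cytokine. The pair of cytokines left it at 17.3, 13.1, 5.84 and 5.77 CPM there. Every si-dnmt library lay below every si-control library, as labelled. Over all 4 replicates the depth of silencing was not found to depend on the cytokines, with an interaction of −0.32 ± 0.48 (SE, adjusted p = 0.928) on the log2 scale. In both states si-control was higher and si-dnmt lower in replicates 3 and 4 than in 1 and 2, so silencing was deeper there. With the cytokines the si-dnmt level changed by 6.96 and 0.775 CPM in replicates 1 and 2, and by −0.609 and −0.754 CPM in 3 and 4. The test over all 4 replicates does not decide whether the depth depended on the cytokines within either pair of replicates.

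Over all genes, 80 of 15250 were called in the interaction at an adjusted p under 0.05, which is 0.525% of those tested. Of these, 24 were positive (0.157%) and 56 negative (0.367%), and 45 were at least 2-fold in size (12 positive, 33 negative). The number of genes at an unadjusted p under 0.05 was 1378. The median interaction over all genes was 0.00 and 49.4% of genes lay below 0. The response to TNF + IFN was larger in absolute size in si-control for 57.4% of genes, which bears on lists of mostly induced genes. With the replicate number as a block in the fit, 638 genes were called (4.18%, of which positive 1.61% and negative 2.57% of genes tested), and all 80 were among them with the same sign. Within replicates 1 and 2 alone 747 genes were called, 60 of the 80 among them, and within 3 and 4 alone 1795, with 76 of the 80. All 80 had the same sign in both pairs of replicates. Leaving out 1 library at a time gave 44 to 97 calls, with 46 without si-control replicate 1, 47 without si-dnmt + TNF + IFN replicate 3 and 44 without its replicate 4, and 32 of the 80 genes kept their call in all 16 such fits. Of the 34 called genes that met the naming rule, 13 did so, namely Ace, Apol10b, Col3a1, Cptp, Epsti1, Fbxl20, Mmp13, Ndufa4, Oas3, Psmb9, Tma16, Vcam1 and Zbp1. The other 21 lost it in at least 1 fit, with highest adjusted p of 0.0517 to 0.167. In a fit with a mean for each group and pair of replicates (pair means), the interaction itself differed between the pairs for 17 of the 80 genes (324 of all genes, 2.12%). That fit was chosen after the data were seen, and its spread is only that between the 2 libraries of a pair. Every adjusted p of a difference between the pairs of replicates given below comes from it.

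TNF + IFN changed 6887 genes in si-control (45.2% of genes tested, 3587 higher and 3300 lower) and 6128 in si-dnmt (40.2%, 3251 higher and 2877 lower). Of the 56 genes with a negative interaction, 33 rose under both siRNAs, 13 rose in si-control and were not called in si-dnmt, 5 were not called in si-control and fell in si-dnmt, 4 rose in si-control and fell in si-dnmt, and 1 fell under both. Of the 24 with a positive interaction, 7 fell in si-control and were not called in si-dnmt, 7 rose under both, 5 fell under both, and 5 rose in si-dnmt and were not called in si-control. The 4 genes that rose in si-control and fell in si-dnmt were Selenbp1, Nek1, Fam210a and Gpi1.

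**Figure D1:**
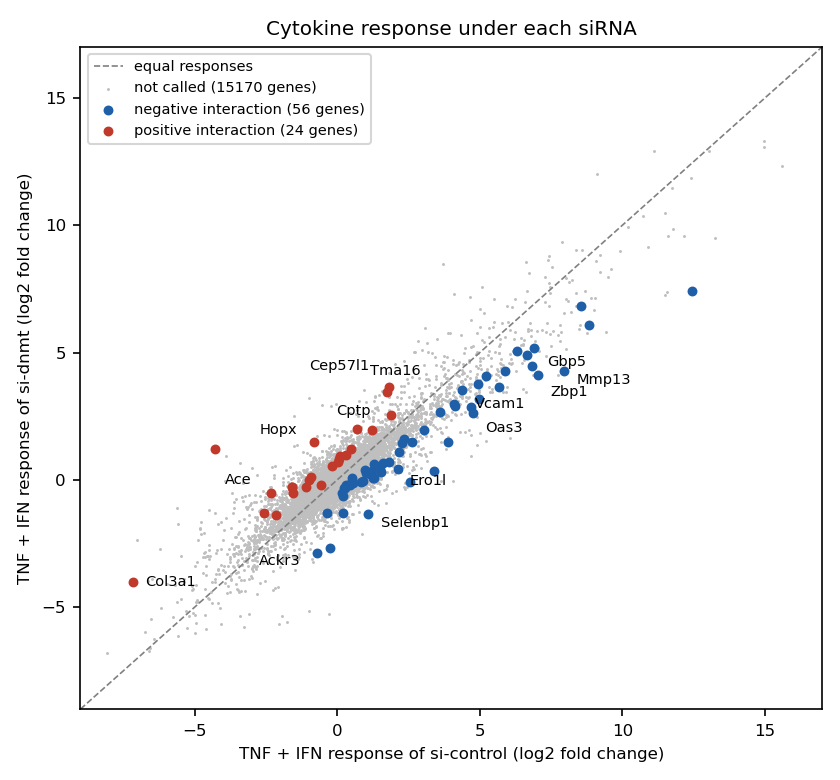
TNF + IFN response of si-control (x axis) against that of si-dnmt (y axis), each as a fitted log2 fold change, 1 point per gene. The 56 genes with a negative interaction lie below the dashed line of equal responses and the 24 with a positive one above it, on both sides of 0.

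A negative interaction can arise from a different starting level or from a different end level, and the contrasts of si-dnmt with si-control in each state separate these. Of the 56 negative genes, 23 were higher in si-dnmt without cytokine and not called with TNF + IFN, 18 were not called without cytokine and lower with TNF + IFN, 8 were higher without and lower with TNF + IFN, 6 were higher in both states and 1 was lower in both. For the 23, every si-dnmt library lay above every si-control library at rest, and with TNF + IFN the ranges of 18 of them overlapped. For the 18, every si-dnmt + TNF + IFN library lay below every si-control + TNF + IFN library. Of the 24 positive genes, 14 were not called at rest and higher with TNF + IFN, 8 were lower at rest and not called with TNF + IFN, and 2 were lower at rest and higher with TNF + IFN. Over all genes, 9.57% were called higher and 8.89% lower in si-dnmt at rest, and 8.97% and 8.72% with TNF + IFN. These contrasts share libraries with the interaction, so the counts describe its parts and are not further evidence for it.

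Of the 23 genes that started higher in si-dnmt, 7, among them Gbp5, Oas3, Oasl2, Psmb9, Tap1 and Zbp1, were on the lists of interferon-inducible GTPases, antiviral genes, MHC class I loading or interferon signalling, which hold 83 of the 15250 genes tested (0.544%). The 23 were defined by a higher level at rest, where 22 of the 32 antiviral genes were also called higher, so the count is a description. A promoter was in the reference table for 18 of the 23. Gbp5 and Oas3 belong to them, and Gbp2, which was higher at rest and lower with TNF + IFN, stands beside them. The stretches below are shown because each holds the interferon-stimulated response element pattern (GAAA, any 2 bases, GAAA) in capitals, as such or as its reverse complement (TTTC, any 2 bases, TTTC). All stretches shown lie upstream of the start. Positions are those of the RefSeq promoter table (GRCm38.p6), which may not be the build behind the counts.
Gbp5, chr3:142496724-142496823, plus strand: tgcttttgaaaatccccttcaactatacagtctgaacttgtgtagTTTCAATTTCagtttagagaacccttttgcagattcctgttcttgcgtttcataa
Oas3, chr5:120777680-120777779, minus strand: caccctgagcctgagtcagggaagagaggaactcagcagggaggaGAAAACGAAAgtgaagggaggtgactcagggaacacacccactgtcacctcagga
Gbp2, chr3:142620559-142620658, plus strand: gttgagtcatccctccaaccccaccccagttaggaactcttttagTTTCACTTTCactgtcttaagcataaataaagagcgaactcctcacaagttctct
In a window from 250 bases before to 50 after the start, searched on both strands, the pattern occurred in 6 of the 18 promoters (33.3%), in 10 of the 42 promoters of all negative genes (23.8%), in 0 of the 19 promoters of positive genes, and in 3.25% of the 10527 promoters of genes tested. Among all listed genes tested, called or not, it was in 13 of 21 promoters of the antiviral list (61.9%) and 10 of 11 of the GTPase list (90.9%). The shares of the called genes depend on how many such genes are among them, so they are a description only. The gamma-activated site pattern TTCNNNGAA, which can overlap the first, was in 2 of the 18 (11.1%) and in 7.02% of genes tested. A match says that these letters are in the window and not that a factor bound there.

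Zbp1 (ENSMUSG00000027514), a sensor of Z-form nucleic acid that acts in cell death, had the most negative interaction among the interferon-induced genes that met the naming rule. It measured 3.42, 2.75, 3.86 and 2.06 CPM in si-control, against 35.1, 38.2, 10.5 and 13 CPM in si-dnmt, so the groups were apart at rest. With TNF + IFN it reached 458, 428, 364 and 349 CPM in si-control, against 438, 465, 385 and 381 CPM in si-dnmt, and these ranges overlapped. The interaction was −2.93 ± 0.41 (SE, adjusted p = 0.000299). On the linear scale the gain over rest in si-control was 397 ± 51.3 CPM (SD, n = 4), and that in si-dnmt was 393 ± 27.3 CPM, and the levels at rest differed by 2.99 ± 0.31 (SE, adjusted p = 1.13e-07) on the log2 scale. The interaction was −3.54 in replicates 1 and 2 and −1.88 in 3 and 4, and this difference was itself called in the fit with pair means (adjusted p = 0.00128).

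The oligoadenylate synthetases, which make the activator of RNase L, and their relative Oasl2 also started higher in si-dnmt. At rest Oas3 measured 9.1, 5.19, 20.2 and 19.6 CPM in si-control, whereas si-dnmt held 78.5, 67.6, 43.8 and 54.9 CPM. With TNF + IFN the si-control libraries reached 420.2, 393, 324 and 332 CPM, and those of si-dnmt 402, 428, 359 and 332 CPM. The groups were apart at rest and overlapped with the cytokines. Its interaction was −2.12 ± 0.39 (SE, adjusted p = 0.00636), −3.32 in replicates 1 and 2 and −1.23 in 3 and 4. The si-control level at rest was lower in replicates 1 and 2 than in 3 and 4, while that of si-dnmt was higher. Oas2 (−1.85 ± 0.42 SE, adjusted p = 0.0337) and Oasl2 (−1.13 ± 0.24 SE, adjusted p = 0.0218) were also called, and Oas2 stayed higher in si-dnmt with TNF + IFN (0.90 ± 0.28 SE, adjusted p = 0.0256). Epsti1, whose product acts in the antiviral state, was higher in si-dnmt in both states, by 2.53 at rest and 0.72 with TNF + IFN, and its interaction was −1.81 ± 0.32 (SE, adjusted p = 0.00475). Apol10b, an apolipoprotein L family member, measured 1.22, 1.11, 2.5 and 2.11 CPM in si-control, against 6.54, 7.1, 8.76 and 8.09 CPM in si-dnmt, and the cytokines took these to 152, 181, 181 and 190.1 and 238, 232, 229 and 214 CPM. It was above si-control in every si-dnmt library in both states, and its interaction was −1.74 ± 0.22 (SE, adjusted p = 6.65e-05). For Oas3, Oas2, Oasl2 and Epsti1 the interaction differed between the pairs of replicates (adjusted p = 1.69e-05 for Oas3, 5.11e-05 for Oas2, 1.11e-05 for Oasl2 and 0.002 for Epsti1).

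Over the list of 32 antiviral interferon-stimulated genes, all 32 had a negative interaction, with a median of −0.71. Of them 4 were called, all negative (6 with the replicate block), and 14 had an unadjusted p under 0.05. At rest 22 of the 32 were higher in si-dnmt (against 9.57% of all genes tested) and 0 lower (against 8.89%). With TNF + IFN 3 were higher (against 8.97%). The median differed by pair of replicates. It was −1.41 in replicates 1 and 2, where 32 of 32 were below 0 and 31 called negative. In 3 and 4 it was 0.10, where 14 were below 0, 7 called negative and 3 positive. Of 14716 genes tested in both pairs, 518 were called negative and 229 positive in replicates 1 and 2. In 3 and 4 these were 1025 and 766. Each of these fits rests on 2 libraries per group. In replicates 1 and 2 the median rise of these genes with TNF + IFN was 3.30 in si-control and 1.81 in si-dnmt, and in 3 and 4 it was 1.95 and 1.98. Isg15, a ubiquitin-like modifier, was −1.41 in the first pair and 0.61 in the second, and it was not called over all 4 replicates (adjusted p = 0.837).

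**Figure D2:**
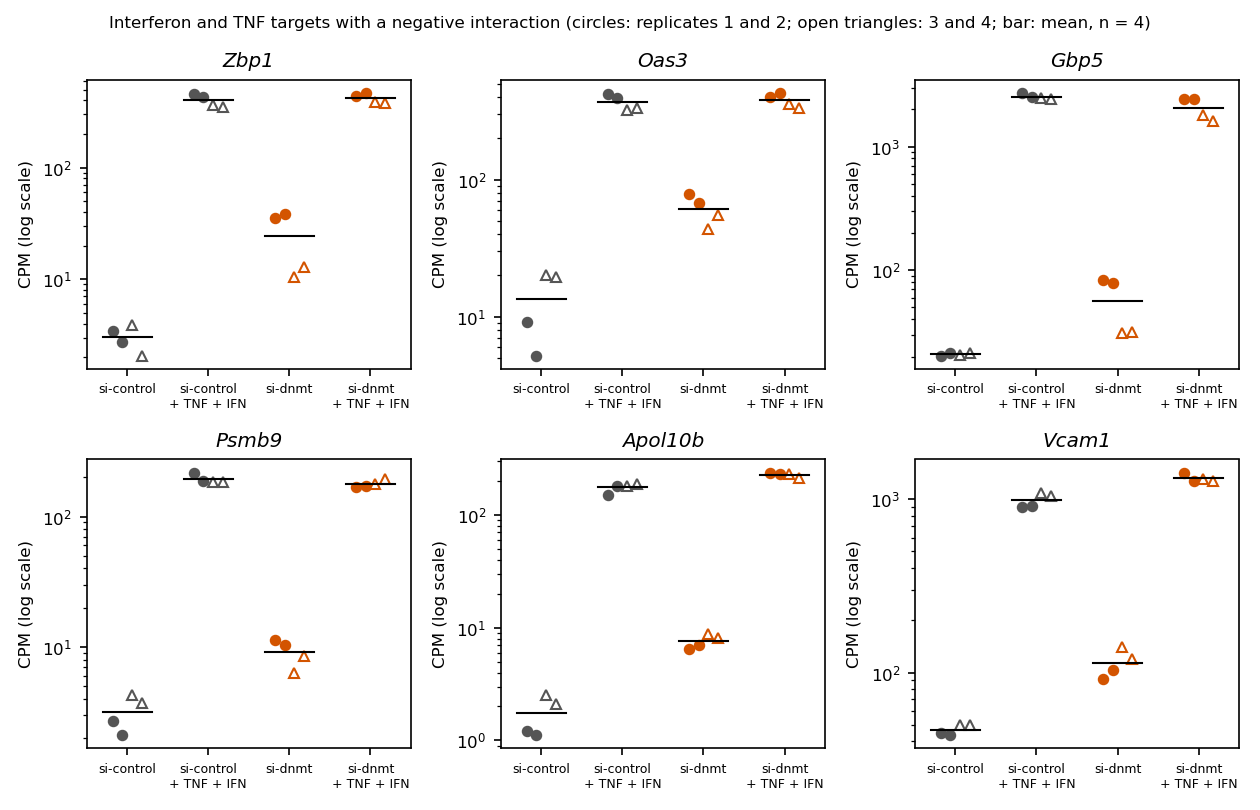
Level of 6 genes with a negative interaction in each library, in CPM on a log axis, for the 4 groups (grey, si-control; orange, si-dnmt), with circles for replicates 1 and 2, triangles for 3 and 4, and the mean of 4 libraries as a bar. For Zbp1, Oas3, Gbp5 and Psmb9 the si-dnmt libraries lie above the si-control libraries at rest and overlap them with TNF + IFN. For Apol10b and Vcam1 every si-dnmt library lies above every si-control library in both states.

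The guanylate-binding proteins and immunity-related GTPases act on membranes of intracellular pathogens. All 16 lay below 0, with a median of −0.96. Of them 3 were called negative, and 9 with the replicate block. Gbp5 measured 20.3, 21.5, 20.4 and 21.3 CPM in si-control, against 83.1, 78.7, 31.1 and 31.8 CPM in si-dnmt. With TNF + IFN si-control reached 2702, 2496, 2486 and 2407 CPM, and si-dnmt 2435, 2429, 1786 and 1598 CPM. The groups were apart at rest and overlapped with the cytokines, though within each pair of replicates si-dnmt then lay below si-control. The interaction was −1.72 ± 0.40 (SE, adjusted p = 0.0411), and it held in 4 of the 16 fits without 1 library, with an adjusted p of up to 0.109. Gbp2 started at 79.9 ± 2.96 CPM (SD, n = 4) in si-control, against 128 ± 40.1 CPM in si-dnmt, and ended at 6329 ± 605 and 4315 ± 722 CPM. Gbp2 was thus higher at rest (0.68 ± 0.20 SE, adjusted p = 0.0146) and lower with TNF + IFN (−0.55 ± 0.19 SE, adjusted p = 0.047), with an interaction of −1.23 ± 0.27 (SE, adjusted p = 0.0308). Gbp8 had the same signs, 1.09 at rest, −0.62 with TNF + IFN and −1.70 ± 0.36 (SE, adjusted p = 0.0216) for the interaction. Counts of Gbp8 overlap those of Gbp4 and Gbp9 in the annotation, so its value is uncertain. The interaction of Gbp5 was −2.06 in replicates 1 and 2 and −1.12 in 3 and 4 (adjusted p of the difference 0.00426). The list's median was −1.36 in replicates 1 and 2 (16 of 16 below 0) and −0.44 in 3 and 4 (14 of 16). At rest the list's median difference of si-dnmt from si-control was 1.18 in replicates 1 and 2 and 0.07 in 3 and 4. With TNF + IFN that difference was −0.09 and −0.26. The GTPases without a call include Igtp (−1.12 ± 0.39, adjusted p = 0.258, block 0.00428) and Gbp9 (−0.04 ± 0.32).

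All 16 genes of MHC class I loading and the immunoproteasome lay below 0, with a median of −0.51 (−0.82 in replicates 1 and 2, −0.39 in 3 and 4). Of them 2 were called, and 9 with the replicate block. Psmb9, a catalytic subunit of the immunoproteasome, measured 2.72, 2.12, 4.3 and 3.72 CPM in si-control, against 11.4, 10.4, 6.31 and 8.61 CPM in si-dnmt, and the cytokines took these to 217, 186, 183 and 185 and 167, 171, 177 and 193 CPM. The interaction was −1.62 ± 0.26 (SE, adjusted p = 0.00203). Tap1, the peptide transporter subunit encoded beside it on the opposite strand, was 42.5 ± 10.1 CPM in si-control, 93.1 ± 16.4 CPM in si-dnmt, 755 ± 124 CPM in si-control + TNF + IFN, against 691 ± 89.3 CPM in si-dnmt + TNF + IFN. Its interaction was −1.26 ± 0.26 (SE, adjusted p = 0.0197). The 2 genes overlap in the annotation, and whether strand was used in counting is not given, so their reads may not be fully separate. Both were smaller in replicates 3 and 4 (−0.88 and −0.77) than in 1 and 2 (−2.42 and −1.77), with adjusted p of the difference 0.00561 and 0.0267. H2-Q5, a class I gene with close paralogs, rose at rest from 0.53 ± 0.234 to 3.32 ± 1.04 CPM and had an interaction of −2.36 ± 0.56 (SE, adjusted p = 0.045). Among the genes not called, Nlrc5, the class I transactivator, had −1.21 ± 0.33 (adjusted p = 0.0974, block 6.63e-05) and H2-K1 −1.32 ± 0.48 (adjusted p = 0.282, block 2.19e-05). The class II list (11 tested) had 8 below 0, a median of −0.31 and 0 called by edgeR with or without the block, and 0 at an unadjusted p under 0.05.

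Among the genes of interferon signalling and its brakes, 15 of 19 lay below 0, with a median of −0.22, and 1 was called negative by edgeR. Irf1, a transcription factor of the interferon response, was −0.77 ± 0.20, with an adjusted p of 0.0787 by edgeR and 0.000222 with the replicate block. It was 1076 ± 97.4 CPM in si-control + TNF + IFN, against 899 ± 85.6 CPM in si-dnmt + TNF + IFN. The receptor subunits Ifngr1 (−0.22 ± 0.16) and Ifngr2 (0.22 ± 0.21) were not called. The block called 4 of the list, all negative.

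Vcam1, the adhesion molecule that binds VLA-4 on leukocytes, was 1 of the 6 negative genes that were higher in si-dnmt in both states. At rest it measured 44.5, 43.5, 49.8 and 49.5 CPM in si-control, whereas si-dnmt held 91.3, 103, 139.7 and 119.5 CPM. With TNF + IFN si-control reached 897, 911, 1091 and 1039 CPM, and si-dnmt 1425, 1272, 1318 and 1283 CPM. The groups did not overlap in either state. The siRNA difference was 1.28 ± 0.11 (SE, adjusted p = 5.69e-09) at rest and 0.43 ± 0.11 (SE, adjusted p = 0.00591) with TNF + IFN, so the interaction was negative at −0.85 ± 0.15 (SE, adjusted p = 0.00636). On the linear scale the gain was larger in si-dnmt, at 1211 ± 81.8 CPM (SD, n = 4) against 938 ± 92.3 CPM in si-control. The sign of the comparison thus depended on the scale. Icam1 (−0.24 ± 0.30, adjusted p = 0.914) and Sele (−0.05 ± 0.34, adjusted p = 0.988), which carry firm adhesion and rolling, had no called interaction, and Vcam1 was the 1 call among the 15 adhesion genes tested (7 below 0, median 0.05).

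Chemokines had a median of −0.91, with 16 of 17 below 0, and 0 were called by edgeR over the 4 groups, while 6 had an unadjusted p under 0.05 and 4 were called negative with the replicate block. In replicates 1 and 2, 10 of the 17 lay below 0 (5 called negative, 2 positive), and in 3 and 4 it was 16 (12 called negative). Of 14716 genes tested in both pairs, 518 were called negative in the first pair and 1025 in the second. Cxcl10, a ligand of CXCR3 on T cells, was 12.1 ± 4.83 CPM in si-control, 31.5 ± 6.81 CPM in si-dnmt, 1747 ± 306 CPM in si-control + TNF + IFN, against 1853 ± 169 CPM in si-dnmt + TNF + IFN (interaction −1.30 ± 0.39, adjusted p = 0.159, block 0.0384). Cxcl9, another CXCR3 ligand, had only 6 counts in the si-control group and 119 in si-dnmt, a ratio of 16.3 (95% Poisson interval 7.26 to 45.2), so its fitted interaction depends on the prior count and is not given. With TNF + IFN it measured 4544, 4356, 3147 and 3213 CPM in si-control, against 8451, 8126, 4041 and 3886 CPM in si-dnmt. The si-dnmt library was the higher one at each of the 4 replicate numbers, by less in 3 and 4, while the ranges over all 4 overlapped. Cx3cl1 (fractalkine) was −0.97 ± 0.26 (adjusted p = 0.0792, block 0.000683) and Cxcl16 −0.88 ± 0.22 (adjusted p = 0.0639, block 0.012). The ELR chemokine Cxcl1 was 0.78 in replicates 1 and 2 and −1.81 in 3 and 4.

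The co-stimulatory genes that the study singled out on these samples had no called interaction on the log2 scale. The study compared si-dnmt with si-control, both with TNF + IFN, which is another measure. In that contrast the fitted level was higher in si-dnmt, 12.2-fold for Icosl, 5.62-fold for Tnfsf4 and 3.01-fold for Cd40. On the linear scale the gain over rest was also larger in si-dnmt than in si-control. It was 10.5 ± 1.38 against 0.836 ± 0.278 CPM for Icosl (SD, n = 4) and 14.1 ± 3.83 against 2.33 ± 2.64 CPM for Tnfsf4. For Cd40 it was 35.4 ± 8.43 against 11.4 ± 4.68 CPM. Tnfsf4 (OX40 ligand) measured 3.66, 5.14, 3.03 and 2.96 CPM in si-control, whereas si-dnmt held 21.2, 17.1, 21.2 and 19.4 CPM. With TNF + IFN si-control reached 3.7, 5.2, 7.82 and 7.4 CPM, and si-dnmt 30.9, 29.7, 36.7 and 38 CPM. The si-dnmt libraries lay above the si-control libraries in both states, and the si-control level differed little from rest in replicates 1 and 2 and was higher in 3 and 4. The log2 response was 0.71 ± 0.23 in si-control and 0.78 ± 0.21 in si-dnmt, and the interaction was 0.07 ± 0.31 (SE, adjusted p = 0.978), with 0.63 in replicates 1 and 2 and −0.46 in 3 and 4. Cd40 rose from 0.925 ± 0.398 to 12.3 ± 4.61 CPM in si-control and from 1.77 ± 0.52 to 37.1 ± 7.93 CPM in si-dnmt, with an interaction of 0.65 ± 0.43 (SE, adjusted p = 0.727). It was positive in both pairs of replicates (0.88 and 0.66). Icosl, the ICOS ligand, had 2 counts in the whole si-control group and 20 in si-dnmt, of which 14 were in replicate 3. With TNF + IFN it had 66 counts in si-control (1.06, 0.78, 0.493 and 1.11 CPM) and 748 in si-dnmt (11.6, 11.8, 9.42 and 9.82 CPM), and the groups did not overlap. Its rise was 37.4-fold in si-control (95% Poisson interval 9.96 to 316) and 55.2-fold in si-dnmt (35.5 to 90.8), intervals that overlap and cover counting error only. Over the list, 4 of 9 genes lay below 0, the median was 0.07, and 0 were called by edgeR, with 2 at an unadjusted p under 0.05 and 1, Tnfrsf14 (−0.93 ± 0.28), called negative with the block (adjusted p = 0.0271). The median was 0.38 in replicates 1 and 2 (2 of 9 below 0) and −0.46 in 3 and 4 (5 of 9). Cd274 (PD-L1) was −1.10 ± 0.34 (adjusted p = 0.185, block 0.00621), and its mean went from 8.49 to 604 ± 186 CPM in si-control and from 22.7 to 753 ± 159 CPM in si-dnmt. Ciita, the class II transactivator, had 7 and 2 counts at rest and reached 194 ± 92.8 and 194 ± 89.3 CPM.

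Slamf8, a SLAM-family receptor, was at 0 counts in all 4 si-control libraries and had 17 counts in si-dnmt. With TNF + IFN it reached 33.7, 29.4, 35.3 and 31.4 CPM in si-control, against 36, 38.4, 21.6 and 21.9 CPM in si-dnmt, which overlapped. It was chosen after its values were seen. Its rise was at least 229-fold in si-control, taking 3 counts per library as the floor, and 177-fold in si-dnmt (95% Poisson interval 110.4 to 305). It was called, but its fitted size depends on the prior count.

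A second set of negative genes was lower in si-dnmt with TNF + IFN, the 18 that were not called at rest and the 8 that were higher at rest. Egln1, Hk2 and Pgm2, chosen after their values were seen, are among them. As background, hypoxia-inducible factor binds the core ACGTG. The stretches below, from the same table, each hold that core in capitals, as such or as its reverse complement CACGT.
Egln1, chr8:124949271-124949370, minus strand: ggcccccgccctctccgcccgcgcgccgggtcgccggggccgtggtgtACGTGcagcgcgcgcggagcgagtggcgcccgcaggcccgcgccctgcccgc
Hk2, chr6:82774455-82774554, minus strand: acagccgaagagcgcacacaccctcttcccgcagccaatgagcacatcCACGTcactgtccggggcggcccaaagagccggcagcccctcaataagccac
Pgm2, chr5:64092829-64092928, plus strand: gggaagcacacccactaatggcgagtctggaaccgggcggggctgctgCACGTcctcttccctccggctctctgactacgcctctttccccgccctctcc
The core is short and common. It was in 6 of 15 promoters of the 18 genes (40%), in 15 of 42 of all negative genes (35.7%), in 6 of 19 of positive genes (31.6%) and in 25.6% of genes tested.

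Ero1l, an oxidoreductase of the endoplasmic reticulum that hypoxia induces, measured 174, 202, 142 and 157 CPM in si-control and 826, 975, 570.0 and 560.2 CPM with TNF + IFN. In si-dnmt it measured 207, 201, 260.0 and 241 CPM and 322, 388, 277 and 246 CPM with TNF + IFN. Every si-dnmt + TNF + IFN library lay below every si-control + TNF + IFN library. At rest it was called higher in si-dnmt (0.43 ± 0.15 SE, adjusted p = 0.0404). The response was 2.12 ± 0.15 in si-control and 0.44 ± 0.15 in si-dnmt, an interaction of −1.68 ± 0.21 (SE, adjusted p = 6.65e-05). It was −1.48 in replicates 1 and 2 and −1.86 in 3 and 4 (adjusted p of the difference 0.36). Ero1l and the other genes of the next paragraphs that the naming rule does not give were chosen after their values were seen.

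Gys1, the glycogen synthase of muscle and most tissues, rose from 49.8, 54.1, 51.8 and 48 to 146, 137, 97.3 and 105 CPM in si-control. In si-dnmt it measured 61.1, 56.8, 57.8 and 57.6 CPM at rest and 64.9, 77.1, 59 and 45.8 CPM with TNF + IFN, and these ranges overlapped. The interaction was −1.17 ± 0.17 (SE, adjusted p = 0.000386). Egln1, the prolyl hydroxylase that marks HIF for degradation, rose from 62 ± 7.07 to 115 ± 20.3 CPM (SD, n = 4) in si-control and was 66.6 ± 3.01 and 65.4 ± 12.2 CPM in si-dnmt (interaction −0.92 ± 0.19 SE, adjusted p = 0.0196). Hk2, a hexokinase, rose under both siRNAs, from 30.5 ± 3.45 to 136 ± 4.53 CPM and from 38 ± 9.37 to 80.6 ± 6.95 CPM, with an interaction of −1.07 ± 0.24 (SE, adjusted p = 0.0298). Gpi1, the next enzyme of glycolysis, rose from 293 ± 17 to 368 ± 39.5 CPM in si-control and fell from 274 ± 11.4 to 241 ± 16.2 CPM in si-dnmt (−0.51 ± 0.11 SE, adjusted p = 0.0196). Mxi1, a MYC antagonist that HIF induces (−1.48 ± 0.25 SE, adjusted p = 0.00244), and Pgm2, a phosphoglucomutase-family enzyme (−0.95 ± 0.15 SE, adjusted p = 0.00104), complete the 7 called genes on the list described next.

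A list of 36 hypoxia and glycolysis genes was written after these values were seen, so it has no test and its counts describe the pattern only. Of the 36, 35 had a negative interaction, with a median of −0.56 (−0.60 in replicates 1 and 2, −0.52 in 3 and 4), and 7 were called (23 with the replicate block). TNF + IFN raised 28 of them in si-control and 12 in si-dnmt (against 23.5% and 21.3% of all genes tested). At rest 2 were higher and 5 lower in si-dnmt (against 9.57% and 8.89%). With TNF + IFN 0 were higher and 27 lower (against 8.97% and 8.72%). Vegfa, the endothelial growth factor, went from 6.69 ± 1.2 to 51.6 ± 2.93 CPM in si-control and from 7.67 ± 3.73 to 17.7 ± 3.28 CPM in si-dnmt (−1.75 ± 0.52, adjusted p = 0.145, block 0.00449). Adm (adrenomedullin) was −1.67 ± 0.49 (adjusted p = 0.14, block 2.29e-07), and Gapdh −0.52 ± 0.13 (adjusted p = 0.0582, block 0.00669). Hif1a itself was −0.23 ± 0.43, and 0.15 and −0.95 in the 2 pairs of replicates. Pfkfb4 was the exception (0.20 ± 0.26).

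A list of 33 genes of the amino-acid and stress response, also written after the values were seen, had the same direction. All 32 tested lay below 0, with a median of −0.70 (−0.62 and −0.79 in the 2 pairs), and 4 were called (13 with the block). Ppp1r15a, the phosphatase subunit that ends the stress response, measured 48, 54.7, 39.6 and 37.2 CPM in si-control, whereas si-dnmt held 59.7, 60, 69.4 and 66.4 CPM. With TNF + IFN si-control reached 153, 133, 131 and 97.7 CPM, and si-dnmt 79.1, 89.3, 76.8 and 74.5 CPM. It was higher at rest and lower with TNF + IFN, without overlap, and its interaction was −1.20 ± 0.22 (SE, adjusted p = 0.00636). Sesn2, a stress-induced regulator of mTORC1, was 30.5 ± 6.81 CPM in si-control and already 67.2 ± 8.37 CPM in si-dnmt, and ended at 74.6 ± 5.92 and 70.4 ± 8.87 CPM (−1.22 ± 0.26 SE, adjusted p = 0.0219). Slc7a1, a cationic amino-acid transporter (−0.89 ± 0.18 SE, adjusted p = 0.0194), and Iars, isoleucyl-tRNA synthetase (−0.78 ± 0.19 SE, adjusted p = 0.0495), were the other calls. The call of Iars held in only 1 of the 16 fits that leave out a library. Atf4, the factor that drives this response, was −0.62 ± 0.28 (adjusted p = 0.494), and 722 ± 33.3 against 398 ± 115 CPM with TNF + IFN. The pattern TGATGNAA was in 9 of 26 promoters of this list (34.6%) and in 2.3% of genes tested. That share depends on which genes were listed, so it describes the list only. The pattern was in 3 of 42 promoters of all negative genes (7.14%). Among the genes not called at rest and lower with TNF + IFN it was in 0 of 15.

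**Figure D3:**
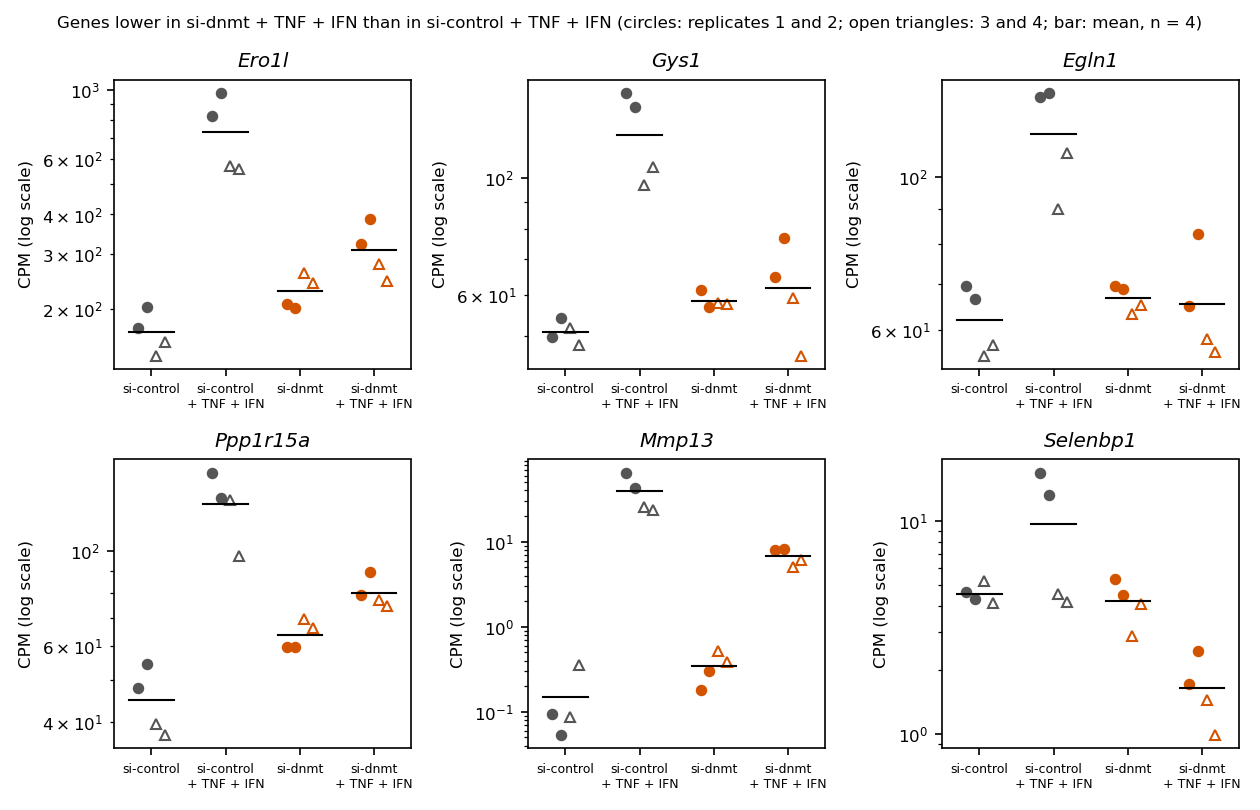
Level of 6 genes with a negative interaction that were lower in si-dnmt + TNF + IFN, in CPM per library on a log axis (grey, si-control; orange, si-dnmt; circles, replicates 1 and 2; triangles, 3 and 4; bar, mean). For each gene every si-dnmt + TNF + IFN library lies below every si-control + TNF + IFN library.

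Other genes reached a lower level in si-dnmt with TNF + IFN. Mmp13, a collagenase, measured 0.0938, 0.053, 0.0878 and 0.359 CPM in si-control, against 0.178, 0.299, 0.511 and 0.382 CPM in si-dnmt, which overlapped, and 64.9, 42.8, 25.6 and 23.7 CPM and 7.99, 8.27, 5.03 and 6.07 CPM with TNF + IFN, which did not. The interaction was −3.70 ± 0.59 (SE, adjusted p = 0.00189), and si-control held 13 counts in all at rest, so the fitted response in that group is imprecise. Ackr3, a scavenging receptor of CXCL12, measured 6.19, 6.76, 4.31 and 4.76 CPM in si-control + TNF + IFN, against 0.922, 0.779, 0.751 and 1.38 CPM in si-dnmt + TNF + IFN, from 2.81, 5.56, 8.56 and 9.32 and 3.74, 3.08, 7.91 and 10.1 CPM at rest (−2.43 ± 0.52 SE, adjusted p = 0.0249). Selenbp1, a methanethiol oxidase, rose in si-control replicates 1 and 2 (4.64, 4.29, 5.23 and 4.12 CPM at rest, 16.9, 13.3, 4.56 and 4.18 CPM with TNF + IFN) and not in 3 and 4, and was lower in every si-dnmt + TNF + IFN library (1.72, 2.46, 1.44 and 0.987 CPM). Its interaction was −2.44 ± 0.51 (SE, adjusted p = 0.0218). Afap1l2, an adaptor of actin and SRC signalling, was 1.1 ± 0.423 and 0.263 ± 0.112 CPM with TNF + IFN (−2.17 ± 0.47 SE, adjusted p = 0.025).

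Positive interactions covered fewer genes. Tma16, a ribosome biogenesis factor, had the lowest adjusted p of these. It measured 11.9, 10.9, 10.7 and 10.4 CPM in si-control, against 8.58, 6.92, 11.2 and 9.62 CPM in si-dnmt, and with TNF + IFN 33.4, 33.9, 41.9 and 38.1 CPM and 80.9, 81.8, 121 and 117 CPM, so the groups overlapped at rest and were apart with the cytokines. The response was 1.75 ± 0.16 in si-control and 3.46 ± 0.16 in si-dnmt, and the interaction was 1.71 ± 0.22 (SE, adjusted p = 6.65e-05). It was 1.81 in replicates 1 and 2 and 1.60 in 3 and 4 (adjusted p of the difference 0.646). Cptp, a ceramide-1-phosphate transfer protein, went from 30.5 ± 6.78 to 49.1 ± 12.5 CPM in si-control and from 32.8 ± 3.37 to 129 ± 15 CPM in si-dnmt (1.29 ± 0.24 SE, adjusted p = 0.00641). Cep57l1, a relative of a centrosomal protein, reached 21.8, 26.7, 26.8 and 22.9 CPM in si-control with TNF + IFN, whereas si-dnmt reached 110.4, 122, 44.4 and 42 CPM. Its interaction of 1.85 ± 0.44 (SE, adjusted p = 0.0464) was larger in replicates 1 and 2 (2.23) than in 3 and 4 (1.08, adjusted p of the difference 0.0192).

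Other positive genes fell with TNF + IFN in si-control and fell less or not at all in si-dnmt. Ace, the angiotensin-converting enzyme of lung endothelium, measured 36.9, 47.5, 77.8 and 76.5 CPM in si-control and 13.3, 11.9, 10.9 and 11.3 CPM with TNF + IFN. In si-dnmt it measured 40.2, 40, 29.7 and 27.2 CPM and 24.8, 28.7, 21.3 and 21.7 CPM, so every si-dnmt + TNF + IFN library lay above every si-control + TNF + IFN library. The interaction was 1.82 ± 0.34 (SE, adjusted p = 0.0079), smaller in replicates 1 and 2 (1.14) than in 3 and 4 (2.39, adjusted p of the difference 0.00215). Ndufa4, a subunit of cytochrome c oxidase, fell from 65.2 ± 10.9 to 21.7 ± 2.75 CPM in si-control and was 59.7 ± 3.85 and 49.2 ± 10.7 CPM in si-dnmt (1.31 ± 0.25 SE, adjusted p = 0.0101). Fbxl20, an F-box protein, fell from 64.1 ± 7.81 to 32.6 ± 3.32 CPM in si-control and stayed at 59.9 ± 4.45 and 59.7 ± 6.15 CPM in si-dnmt (0.97 ± 0.16 SE, adjusted p = 0.00203). Zfp697, a zinc finger gene, had the same form (1.05 ± 0.23 SE, adjusted p = 0.0249).

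Col3a1, the fibrillar collagen chain, had the largest positive interaction among the named genes (3.14 ± 0.56 SE, adjusted p = 0.00567). It measured 41.7, 45.6, 77.9 and 75.2 CPM in si-control, against 18.2, 13.3, 27.4 and 23.6 CPM in si-dnmt, and fell to 0.336, 0.208, 0.8 and 0.37 CPM and 1.17, 1.02, 1.68 and 1.23 CPM. It is also a fibroblast marker. Of the 4 fibroblast markers tested, 2 lay below 0 and Col3a1 was the 1 positive call, while Lum had no count in any of the 4 groups. The summed fibroblast markers were 43.3 to 80.5 CPM in si-control, 23.1 to 35.3 CPM with TNF + IFN there, 17.6 to 34.5 CPM in si-dnmt and 10.8 to 25.6 CPM with TNF + IFN. In si-control most of that sum was Col3a1 itself at rest (41.7 to 77.9 CPM) and Dcn with TNF + IFN (20.5 to 34.1 CPM). Dcn was 0.448 to 1.91 CPM in si-control at rest, so the sum does not measure a share of fibroblasts. The part of other cells in the value of Col3a1 was not tested. Mmd, named for monocyte differentiation, fell from 41 ± 3.88 to 6.88 ± 0.754 CPM in si-control and from 20.9 ± 3.11 to 8.47 ± 2.67 CPM in si-dnmt (interaction adjusted p = 0.0218). Bace2, an aspartyl protease (1.03 ± 0.23 SE, adjusted p = 0.0333), and Mcf2l, a guanine nucleotide exchange factor (1.31 ± 0.30 SE, adjusted p = 0.0366), also started lower in si-dnmt and fell less. Hopx, a homeodomain-only protein, was 5.24 ± 3.1 CPM in si-control, 1.03 ± 0.44 CPM in si-dnmt, and 2.97 ± 0.654 and 2.93 ± 0.961 CPM with TNF + IFN (2.31 ± 0.53 SE, adjusted p = 0.0366).

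**Figure D4:**
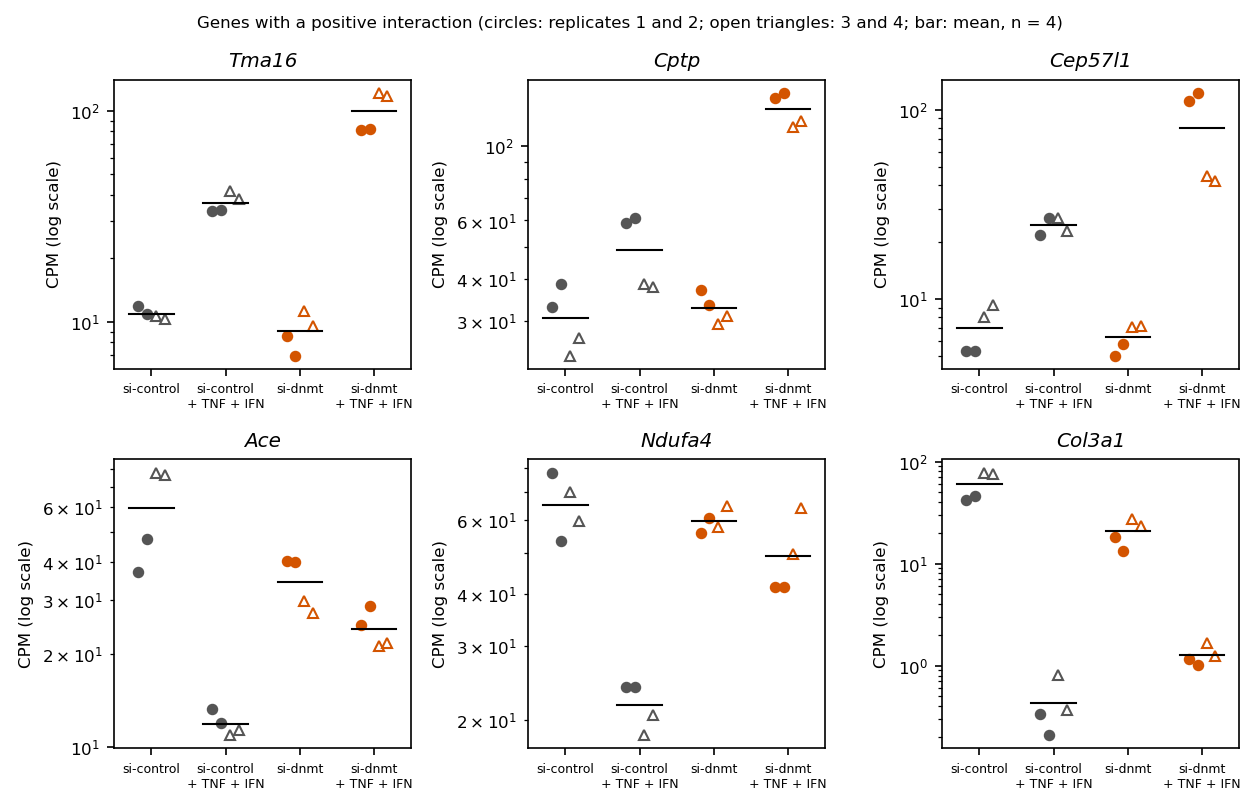
Level of 6 genes with a positive interaction in each library, in CPM on a log axis (grey, si-control; orange, si-dnmt; circles, replicates 1 and 2; triangles, 3 and 4; bar, mean). Every si-dnmt + TNF + IFN library lies above every si-control + TNF + IFN library for the 6 genes, and Col3a1 and Ace lie lower in si-dnmt on average at rest.

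Other lists gave few or no calls. In the list of matrix and proteases Mmp13 and Col3a1 were the 2 calls of 15 genes. No gene was called by edgeR among 21 cell-cycle genes (14 below 0, median −0.05, 0 at an unadjusted p under 0.05), 24 genes of the NF-κB pathway (15 below 0, median −0.11, 5 unadjusted, 1 with the block, but a median of 0.09 with 9 below 0 and 0 called negative in replicates 1 and 2, and −0.45 with 19 below 0 and 11 called negative in 3 and 4), 14 interleukins and colony-stimulating factors (median −0.29, 1 unadjusted, 2 with the block), 16 inflammasome and death genes (median −0.03, 3 unadjusted, 3 with the block), 16 oxidase and antioxidant genes (median −0.14, 1 unadjusted, 0 with the block), or 8 inhibitory ligands (median −0.03, 1 unadjusted, 1 with the block). The same held for 24 endothelial identity genes (14 below 0, median −0.07, 3 unadjusted, 1 with the block), 14 genes of DNA methylation (7 below 0, median 0.01, 2 unadjusted, 1 with the block) and 4 germline genes (1 below 0, median 0.39, 0 unadjusted, 0 with the block). The median also changed sign between replicates 1 and 2 and replicates 3 and 4 for inhibitory ligands (−0.46 and 0.33), endothelial identity (−0.13 and 0.17) and germline genes (−0.16 and 0.59). Beside the calls of NF-κB genes by pair, 518 of 14716 genes were called negative in replicates 1 and 2, and 1025 in 3 and 4. Complement and coagulation had 14 of 18 below 0, a median of −0.55 and 0 called by edgeR, with 5 unadjusted and 4 with the block. C1ra, a protease of the classical pathway, was −1.10 ± 0.33 there (adjusted p = 0.159, block 0.00621).

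**Figure D5:**
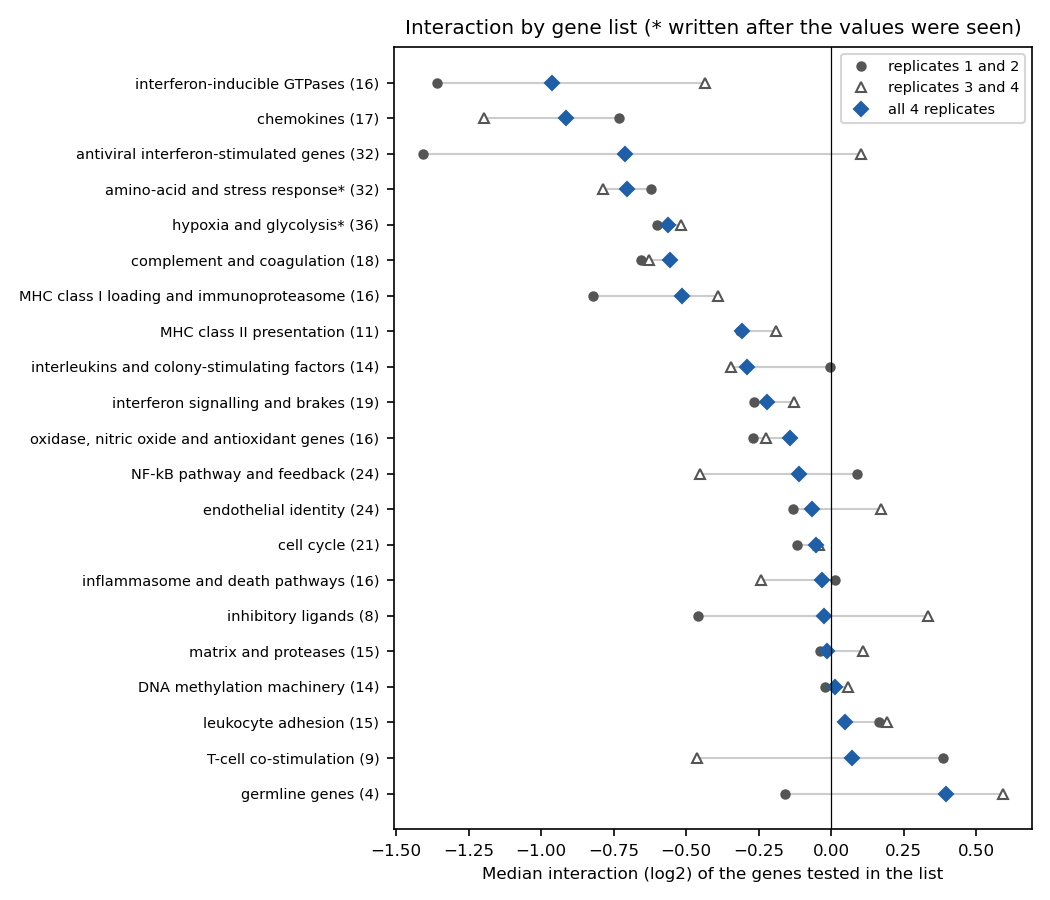
Median interaction (log2, x axis) over the tested genes of each list, with the number tested in brackets, for all 4 replicates, for replicates 1 and 2 and for replicates 3 and 4. The list of antiviral genes lies at −1.41 in replicates 1 and 2 and at 0.10 in 3 and 4. An asterisk marks the 2 lists written after the values were seen.

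Whether the interaction belonged to the cytokine pair or to 1 cytokine was tested as the difference between interactions. The groups of either siRNA with TNF or IFN alone, 4 libraries each, supply these values, and all these interactions share the libraries without cytokine. By edgeR, 5 genes were called in the siRNA-by-TNF interaction (0.0328% of genes tested, 1011 at an unadjusted p under 0.05) and 7 in the siRNA-by-IFN interaction (0.0459%, 404 unadjusted). For TNF these were Vcam1, Zbp1, Slc16a10 and Ascc3, all negative (0.0262%), and Smarca2, which was positive (0.00656%). For IFN they were Apol10b, Zbp1, Psmb9, Gm12250, Gbp2, Gbp8 and Ube2l6, all negative. The genes that do not come from the naming rule were named after the counts were seen. Zbp1 was −2.40 with TNF, −2.93 with IFN and −2.93 with both, Psmb9 −0.72, −1.86 and −1.62, and Vcam1 −1.02, −0.23 and −0.85.

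The test of the difference called 6 genes against IFN alone (0.0393% of genes tested, 843 at an unadjusted p under 0.05, 113 with the replicate block) and 5 against TNF alone (0.0328%, 593 unadjusted, 48 with the block). Tma16 was in both. Its mean level in si-dnmt was 9.09 CPM at rest, 19.6 CPM with TNF, 10.1 CPM with IFN and 100.4 CPM with both, and in si-control 10.9, 21.3, 12.4 and 36.8 CPM. The interaction with both exceeded that with IFN by 1.75 ± 0.22 (SE, adjusted p = 0.000129) and that with TNF by 1.57 ± 0.21 (SE, adjusted p = 0.000859). Gys1 was also in both, with −1.08 ± 0.17 (SE, adjusted p = 0.00319) against IFN and −0.90 ± 0.17 (SE, adjusted p = 0.0303) against TNF. Its mean level in si-control was 50.9 CPM at rest, 52.9 with TNF, 56.3 with IFN and 121 with both, and in si-dnmt 58.3, 50.1, 60.4 and 61.7 CPM. Against IFN the remaining genes were Ero1l (−1.34 ± 0.21 SE, adjusted p = 0.00319), Appl2, Nmnat2 and Col3a1 (2.98 ± 0.56 SE, adjusted p = 0.0318), of which Nmnat2 and Col3a1 were positive. Against TNF they were Batf2, Mxi1 (−1.36 ± 0.25 SE, adjusted p = 0.0303) and Gbp8 (−1.59 ± 0.30 SE, adjusted p = 0.0303), all negative. Of genes tested, 0.00656% were positive and 0.0262% negative in this difference.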

How the data were processed

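RNA from 32 cultures of mouse lung ECs was sequenced in bulk, and 16 libraries form the interaction. The deposited tables hold gene counts that the authors made with featureCounts after trimming with cutadapt 4.9. FastQC 0.12.1, MultiQC 1.27.1 and DESeq2 are also in the submitters' processing notes. No source used here names the aligner, genome build or strand setting, and 26 of the 45 named genes overlap another gene in GENCODE M21, so their counts may share reads. Genes with a count of about 10 in enough libraries were kept (filterByExpr). Counts were fitted with edgeR 4.0.16 in R 4.3.3 (quasi-likelihood test, TMM factors, 8 group means over all 32 libraries), two-sided, with Benjamini-Hochberg adjustment over all genes kept, and called at an adjusted p under 0.05. SE is the log2 value divided by the root of F. DESeq2 1.42.0 was an alternative, and the scripts were tested on simulated data. Poisson intervals (95%) and floors (3 counts) cover counting error only. Total counts of 17362500 to 26901200 (rounded) per library set the precision for low genes.

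Same-numbered libraries of different groups deviated together in all 24 comparisons (correlation 0.297 to 0.513). Libraries with the other number of the same pair of replicates did so to a like degree (0.269 to 0.563). Of 48 comparisons of a library with another group, the best match had the library's own number in 25. The correlations thus separate the pairs of replicates and do not show matching by number within a pair. A fit with the replicate number as a block follows the labels and stands beside results it changes. Named genes were a fixed set of genes the study measured, up to 12 called genes of the largest size in each direction with at least 1 CPM in a group and 0.2 CPM in every group and the same sign in both pairs of replicates, up to 4 called genes a list, and up to 6 with opposite called responses, and others are marked as chosen after their values were seen. The members and lists were chosen with earlier results of these data known, and the hypoxia and amino-acid lists after the values were seen. Promoters come from RefSeq (GRCm38.p6), with 10527 of 15250 tested genes matched by symbol. The combined groups were read as having the doses of the single cytokines, and 1 group label spelled si-dnmtl was read as si-dnmt. Some genes that met the naming rule are not reported here.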

Additional observations from a re-analysis of the deposited data

Results flagged for a closer look

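Over 45 named genes in 4 groups, 180 sets of 4 libraries were examined for a library apart from the other 3 (Dixon gap over range), a criterion that chance meets in about 1 of 20 sets. It was met by 9 libraries. Afap1l2 was 1.73 CPM in si-control + TNF + IFN replicate 1, against 0.846 to 0.924 CPM in the other replicates. Psmb9 was 217 CPM in the same library, against 183 to 186 CPM. Mcf2l was 1.06 CPM in si-control + TNF + IFN replicate 4 (others 1.97 to 2.16 CPM) and 1.68 CPM in si-dnmt + TNF + IFN replicate 4 (others 2.15 to 2.22 CPM). In si-control at rest, Cxcl9 was 0.159 CPM in replicate 2 (others 0.0439 to 0.0469 CPM), Mmp13 was 0.359 CPM in replicate 4 (others 0.053 to 0.0938 CPM), and Nek1 was 31.1 CPM in replicate 4 (others 24.1 to 25.2 CPM). In si-dnmt, Icosl was 0.477 CPM in replicate 3 (others 0.0445 to 0.104 CPM) and Sele was 53.9 CPM in replicate 1 (others 63.5 to 65.4 CPM).

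The interaction with the cytokine pair differed from that with a single cytokine for 3 named genes. Tma16 was higher by 1.75 ± 0.22 (log2 ± SE) than with IFN alone and by 1.57 ± 0.21 than with TNF alone. Col3a1 was higher by 2.98 ± 0.56 than with IFN alone, and Gbp8 differed by −1.59 ± 0.30 from TNF alone. The adjusted p from edgeR was 0.000129, 0.000859, 0.0318 and 0.0303 in that order.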

How the results depend on the processing

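The 80 interaction calls became 205 with DESeq2, 41 with the 16 libraries alone, 638 with the replicate block, 747 with replicates 1 and 2 alone, 1795 with 3 and 4 alone, and 2042 with a mean for each group and pair of replicates, an alternative chosen after seeing the data. Of the 80, 36 were called with the 16 libraries alone. Negative calls were 70% of the 80 and 57.2% in replicates 3 and 4 alone. Counts with other scaling factors and filters stayed within 1.5 times. The siRNA calls without cytokine were 4944 with the block, 5543 in replicates 3 and 4 and 6650 with the pair means, and with TNF + IFN 4692, 5496 and 6279. The calls against IFN alone (6) became 27, 113, 162, 630 and 954 with DESeq2, the block, replicates 1 and 2, replicates 3 and 4 and the pair means, and those against TNF alone (5) became 21, 48, 257, 105 and 493. The cause was not tested. Leaving out 1 library gave 44 to 97 interaction calls, 5 to 9 against IFN alone and 2 to 7 against TNF alone, the latter 2 without si-control + TNF + IFN replicate 2 or si-dnmt + TNF + IFN replicates 3 or 4, and 3 without replicate 1 of either. For the siRNA contrasts it gave 1991 to 2795 without cytokine and 2083 to 2734 with TNF + IFN. Of the 45 named genes, 21 lost their call with the 16 libraries alone, the block added 4 calls and lost 0, and 0 of those called changed sign in these fits. The 16 libraries alone cannot give the contrasts with a single cytokine. Uncalled Sele was 0.34 in replicates 1 and 2 alone and −0.16 to 0.072 without 1 library, and uncalled Tnfsf4 was −0.46 in replicates 3 and 4 alone and −0.13 to 0.22 without 1 library. Genes near 0 counts at rest limit the log2 values.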
